A study of Mus musculus with 120 samples.

Results

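Single mouse group 2 innate lymphoid cells (ILC2) that were recovered 90 min after the onset of their own cytokine secretion were compared with activated cells, to see which transcripts were higher or lower once secretion was established. By source name, 22 cells were transition cells at 90 min and 22 were activated, together 44 of the 120 cells of the series. None of these 44 cells held fewer than 10000 gene reads, the limit for leaving a cell out. Secretion was followed by live imaging of 1 cytokine, IL-13 or IL-5, which is called the index here, and each index had 11 cells per state. All 4 groups were ILC2 from the pooled mesentery of 20 wildtype C57BL/6 mice, which the labels also call fat tissues. The cells were sorted as lineage-negative and c-Kit+Sca-1+, grown for several months in culture and incubated with both IL-2 and IL-33, and they carried no transgene or deleted gene. The labels give no age, and per the study's methods its ILC2 generally came from female mice retired from breeding. A transition cell was taken at a fixed delay after its own onset, whereas an activated cell was a secreting cell taken at a fixed time after the stimulus, so the time since its onset is not known. Both states were therefore separated by time since stimulation as well as by time since onset, and these cannot be told apart.

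Since no label ties a cell to its animal or culture, the 11 cells of a group count as 1 sample and no test between groups was possible. Values are given as counts per 1000000 gene reads (CPM), summed over the cells of a group, with the lowest, median and highest cell, and as log2 ratios of the summed CPM of activated over 90 min cells. Where a pair of ratios is given, that of the IL-13 index comes first. A group with fewer than 3 reads was set at a floor of 3 reads, also by date or with a cell left out. Ratios against that floor are lower bounds of their size. Intervals are exact 95% counting intervals. Because reads carry no molecular identifiers, they cover counting error only. Each index has 2 dates in its sample titles. The first date covers 5 cells of either state, the second covers 6. In the library protocol, 5 or 6 libraries were pooled before tagmentation, so a pool and a state on a date may be the same set of cells and cannot be told apart. Depth per cell was lower at 90 min. IL-13-index cells had 50723 to 279395 gene reads per cell at 90 min (median 156702) and 207246 to 464285 when activated (median 266402). In IL-5-index cells it was 66588 to 230954 (median 184079) and 223789 to 465179 (median 325825). Mitochondrial transcripts took a median of 2.01% of gene reads at 90 min and 1.22% when activated in IL-13-index cells, and 1.64% and 1.28% in IL-5-index cells. Replicate 3 at 90 min of IL-13-index cells (4.66%) and replicate 11 at 90 min of IL-5-index cells (14.1%) lay above 4%.

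ILC2 are tissue lymphocytes without antigen receptors that answer alarmins. IL-33 acts through its receptor ST2 on NF-kB and MAP kinases, and IL-2 through JAK kinases on STAT5. Within hours the cells secrete IL-5 and IL-13, and under strong stimulation also IL-9 and GM-CSF. Secretion at this scale loads the endoplasmic reticulum, which folds and exports the cytokines, and it draws on ribosomes, glycolysis and mitochondria.

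In both indexes, activated cells held more of a set of transcripts led by Il9, which encodes the cytokine IL-9, and including single genes of mitochondria, protein folding and ribosome assembly. They held less of Sqstm1, of small calcium-binding S100 proteins, of Klrg1 and of single NF-kB feedback genes such as Tnfaip3. A gene was taken as measured with a mean of at least 50 CPM over both states, and as past the limit at 2-fold. In IL-13-index cells 484 of 2579 genes (18.8%) were higher in activated cells past 2-fold and 612 (23.7%) were lower, 1096 (42.5%) in all. In IL-5-index cells 341 of 2738 genes (12.5%) were higher and 698 (25.5%) lower, 1039 (37.9%) in all. Of 2097 genes measured in both indexes, 86 (4.1%) were higher past 2-fold in both, 171 (8.15%) were lower in both, and 68 (3.24%) lay past 2-fold in opposite directions. Of the 86 genes, 73 (3.48% of the 2097) were higher in each of the 4 title dates taken alone, and of the 171 genes 119 (5.67%) were lower in each. Scaling changed the balance. With edgeR's TMM factors the median gene moved from -0.05 to 0.08 in IL-13-index cells and from -0.14 to 0.10 in IL-5-index cells, 471 genes were higher and 535 lower in IL-5-index cells, and 129 were higher and 137 lower in both.

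**Figure D1:**
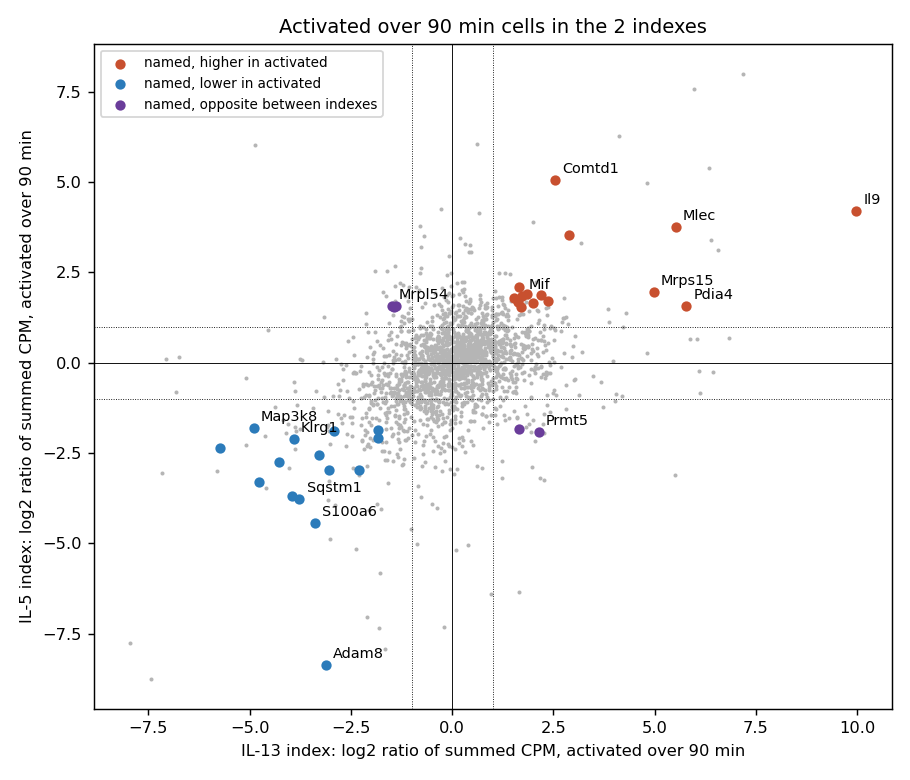
Log2 ratio of summed CPM, activated over 90 min cells, in the IL-13 index (horizontal axis) and the IL-5 index (vertical axis) for the 2097 genes measured in both (grey), with the genes named by rule in colour and the 2-fold limits dotted. Il9 lies farthest to the right among the coloured genes (9.98 and 4.20), and Sqstm1 lies near the diagonal at lower left (-3.77 and -3.78).

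The ratios of the indexes, which share no cells, had r = 0.40 and rho = 0.37 over these 2097 genes. Genes are not independent replicates, and each index's states differ in depth in the same direction, so these are descriptions. Of the 2097 genes, 1359 (64.8%) had the same sign in both indexes. Cells of the states overlapped for nearly all genes: in IL-13-index cells 0 genes (0%) were higher, and 0 (0%) lower, in every activated cell than in every 90 min cell. In IL-5-index cells 0 (0%) were higher and 1 (0.0365%) was lower, which is Malat1.

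Promoters of 4 genes are printed because their genes stand for the main patterns: Il9 and Mif for the transcripts higher in activated cells, Sqstm1 and S100a11 for those lower. Each is the stretch of 250 bases before the RefSeq start on GRCm38, 5′ to 3′ on the gene's strand. Capitals mark a match on either strand to CACGTG (E-box), GGGA and CC with any 4 bases between them (NF-kB type), TGANTCA (AP-1), TTCNNNGAA (STAT) or TGACGTCA (CRE). Il9 is at chr13:56482258-56482507 on the minus strand, Mif at chr10:75860278-75860527 on the minus strand, Sqstm1 at chr11:50210821-50211070 on the minus strand and S100a11 at chr3:93520246-93520495 on the plus strand.
Il9: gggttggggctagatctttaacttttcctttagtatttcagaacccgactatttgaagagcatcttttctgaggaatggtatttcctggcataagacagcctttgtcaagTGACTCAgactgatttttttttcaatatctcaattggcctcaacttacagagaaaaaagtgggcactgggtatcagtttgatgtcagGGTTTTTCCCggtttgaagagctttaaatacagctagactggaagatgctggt
Mif: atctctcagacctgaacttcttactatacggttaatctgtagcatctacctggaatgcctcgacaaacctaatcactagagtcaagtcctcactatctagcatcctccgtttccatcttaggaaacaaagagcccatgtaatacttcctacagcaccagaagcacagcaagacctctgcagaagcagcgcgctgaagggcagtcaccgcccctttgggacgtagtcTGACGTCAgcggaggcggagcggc
Sqstm1: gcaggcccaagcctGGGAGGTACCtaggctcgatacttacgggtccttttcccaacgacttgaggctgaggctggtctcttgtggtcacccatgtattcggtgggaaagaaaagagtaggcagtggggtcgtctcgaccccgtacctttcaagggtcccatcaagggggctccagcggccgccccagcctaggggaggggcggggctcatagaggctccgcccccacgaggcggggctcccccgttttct
S100a11: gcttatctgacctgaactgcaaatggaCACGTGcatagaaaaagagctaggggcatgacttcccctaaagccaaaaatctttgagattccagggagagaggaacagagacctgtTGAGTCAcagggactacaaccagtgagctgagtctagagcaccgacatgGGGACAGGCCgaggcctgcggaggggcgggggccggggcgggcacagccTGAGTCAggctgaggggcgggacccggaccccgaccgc
The Il9 stretch held TGACTCA with its first base 140 bases before the start and GGTTTTTCCC at 53 bases. Mif held TGACGTCA at 24 bases and Sqstm1 GGGAGGTACC at 236 bases. S100a11 held CACGTG at 223 bases, GGGACAGGCC at 87 bases and TGAGTCA at 136 and at 38 bases. Shares of genes with a motif were counted over 300-base windows, which reach 50 bases past the start. Of 1678 measured genes with a window, 12.3% held CACGTG, 24.1% the NF-kB type motif, 5.07% TGANTCA, 7.03% TTCNNNGAA and 3.75% TGACGTCA. Among 76 genes higher in both indexes the shares were 10.5%, 21.1%, 2.63%, 5.26% and 5.26%. Among 132 genes lower in both they were 12.1%, 28.0%, 8.33%, 9.85% and 1.52%. A match is a description of the letters, not a bound site.

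Il9 ranked first among the genes higher in activated cells by the smaller of its ratios in the 2 indexes. With IL-13 as the index, 90 min cells held 0 to 642 CPM (median 0, reads in 1 of 11 cells) and activated cells 24.4 to 154582 CPM (median 196, reads in 11 of 11). With IL-5 as the index, 90 min cells held 10.9 to 16867 CPM (median 56.7) and activated cells 27.4 to 229067 CPM (median 580). The groups overlapped in both indexes, since only 4 activated cells of each index lay above the highest 90 min cell. Summed Il9 went from 43.8 to 44252 CPM in IL-13-index cells, a log2 ratio of 9.98 (9.65 to 10.33), and from 3287 to 60451 CPM in IL-5-index cells, a log2 ratio of 4.20 (4.16 to 4.24). A few cells carried the activated sums. The 3 activated cells over 10000 CPM of the IL-13 index held 99.4% of the Il9 reads of that activated group, and 5 such cells held 99.7% in the activated group of the IL-5 index. Without replicate 2, the only IL-13-index cell at 90 min with an Il9 read, the ratio was at least 14.48, set by the floor of 3 reads. Without activated replicate 11 the ratio of IL-13-index cells was 9.18. Without replicate 2 at 90 min the ratio of IL-5-index cells was 5.10, and without activated replicate 6 it was 3.47. By date, the ratio was 6.64 and at least 14.64 in IL-13-index cells and 0.76 and 5.10 in IL-5-index cells. On the second date 0 of 6 IL-13-index cells at 90 min had an Il9 read, so 14.64 was set by the floor of 3 reads. In the 6 sets of 1 state and 1 date that held a cell over 5000 CPM, 33 of 33 cells had an Il9 read. In the other 2 sets, which are the IL-13-index cells at 90 min, 1 of 11 did. Whether reads of a high cell reached other libraries of its pool was not tested, so the low Il9 values, the cell counts and the medians above are not read as expression in each cell. Before stimulation and in silent cells, which did not secrete, summed Il9 was 0 and 0.378 CPM among IL-13-index cells and 0 and 3.26 CPM among IL-5-index cells.

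Mif, which encodes macrophage migration inhibitory factor, a stored and secreted cytokine, was well separated between the states. In IL-13-index cells it ran from 126 to 1020 CPM (median 434) at 90 min and from 930 to 4453 CPM (median 1471) when activated. In IL-5-index cells it ran from 0 to 1256 CPM (median 406) and from 1211 to 3475 CPM (median 2293). Of 11 activated cells, 9 and 10 lay above the highest 90 min cell of their index. The log2 ratio of summed Mif was 1.72 (1.62 to 1.82) and 1.84 (1.75 to 1.93), with 1.84 and 1.73 by date in IL-13-index cells and 1.60 and 2.00 in IL-5-index cells. Leaving out any 1 cell kept it between 1.42 and 2.02. Gapdh, a glycolytic enzyme often used as a reference transcript, separated the states as well: 10 of 11 activated cells of each index lay above the highest 90 min cell. Its summed level went from 260.0 to 877 CPM, a log2 ratio of 1.75 (1.61 to 1.90), and from 373 to 950 CPM, a log2 ratio of 1.35 (1.23 to 1.47).

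Cd81 encodes a tetraspanin of the plasma membrane. In IL-13-index cells it was at 0 to 1005 CPM (median 177) at 90 min and 208 to 3883 CPM (median 1190) when activated, and in IL-5-index cells at 0 to 2012 CPM (median 177) and 348 to 2428 CPM (median 977). Every activated cell of both indexes lay above the median 90 min cell, while 6 and 2 lay above the highest one. The log2 ratio of summed Cd81 was 2.36 (2.22 to 2.51) and 1.71 (1.59 to 1.83), and without replicate 2 at 90 min that of IL-5-index cells was 2.71.

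Several genes had reads in fewer 90 min cells than activated cells. Mrps28, a protein of the small mitochondrial ribosome, had reads in 2 and 5 of 11 cells at 90 min and in 9 and 11 when activated, with summed levels of 127 and 460 CPM in IL-13-index cells and 126 and 475 CPM in IL-5-index cells. Its log2 ratios were 1.86 (1.65 to 2.08) and 1.91 (1.71 to 2.11), and without replicate 7 at 90 min the former was 3.89. Stoml2, a scaffold protein of the inner mitochondrial membrane, had reads in 4 and 6 cells at 90 min and in 11 and 11 when activated. Its log2 ratios were 1.62 (1.38 to 1.86) and 1.68 (1.48 to 1.90), and without replicate 8 at 90 min the latter was 2.39. Gsto1, a glutathione transferase, had reads in 5 and 3 cells at 90 min and in 11 and 10 when activated, with log2 ratios of 1.99 (1.79 to 2.20) and 1.64 (1.43 to 1.86). Without replicate 6 or replicate 8 at 90 min, the Gsto1 ratio of IL-5-index cells was 2.53 or 2.29. Rrp9, a protein of the U3 particle that processes ribosomal RNA, had reads in 5 and 8 cells at 90 min and in 9 and 11 when activated, with log2 ratios of 1.52 (1.21 to 1.85) and 1.79 (1.50 to 2.11). Pdia4, a disulfide isomerase of the endoplasmic reticulum, had 0 reads in the 11 IL-13-index cells at 90 min against 317 in activated cells, at least 55.1-fold higher against a floor of 3 reads over the group. In IL-5-index cells it had reads in 4 cells at 90 min and in 10 when activated, with a log2 ratio of 1.56 (1.23 to 1.90). The 90 min cells were shallower. With each cell thinned to 50000 gene reads, a choice made after seeing the data, 117 genes were higher and 205 lower past 2-fold in both indexes.

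The other genes named as higher were found in 0 to 3 of 11 cells of an index at 90 min and in 8 to 10 when activated. Leaving out 1 of these few 90 min cells moved a ratio of each gene by more than 1.5-fold, in each case to a larger ratio. Mlec, malectin of the endoplasmic reticulum, had 0 reads at 90 min against 265 among IL-13-index cells, at least 46.1-fold higher, and a log2 ratio of 3.75 among IL-5-index cells, which was 5.47 without replicate 2 at 90 min. Mrps15, a mitochondrial ribosomal protein, had ratios of 4.98 and 1.96, with 5.98 and 5.75 for the former without replicate 5 and replicate 6 at 90 min, and 3.02 for the latter without replicate 7. Exosc7, a subunit of the RNA exosome, had 2.89 and 3.52, which were 4.89 without replicate 5 and 5.37 without replicate 8 at 90 min. The rule that named these genes asked for reads in 70% or more of the cells of the higher state, so their presence in most activated cells was set by the rule.

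Hsd17b10, a mitochondrial dehydrogenase, had log2 ratios of 1.71 and 1.55. Without replicate 7 at 90 min of each index they were at least 6.60, set by the floor of 3 reads, and 2.48. Qdpr, dihydropteridine reductase, had 2.20 and 1.87. Without replicate 7 at 90 min the former was at least 6.71, also set by the floor, and without replicate 6 at 90 min the latter was 3.15. Fam49b had 1.66 and 2.09, which were 4.66 without replicate 10 and 3.57 without replicate 1 at 90 min. Comtd1, named for its likeness to a catechol methyltransferase, had 2.54 and 5.06, which were 6.08 without replicate 7 and 6.11 without replicate 6 at 90 min. Comtd1 shares exonic bases with Vdac2 on the other strand, and strand use in counting is not given in the sources used here, so its level is uncertain.

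**Figure D2:**
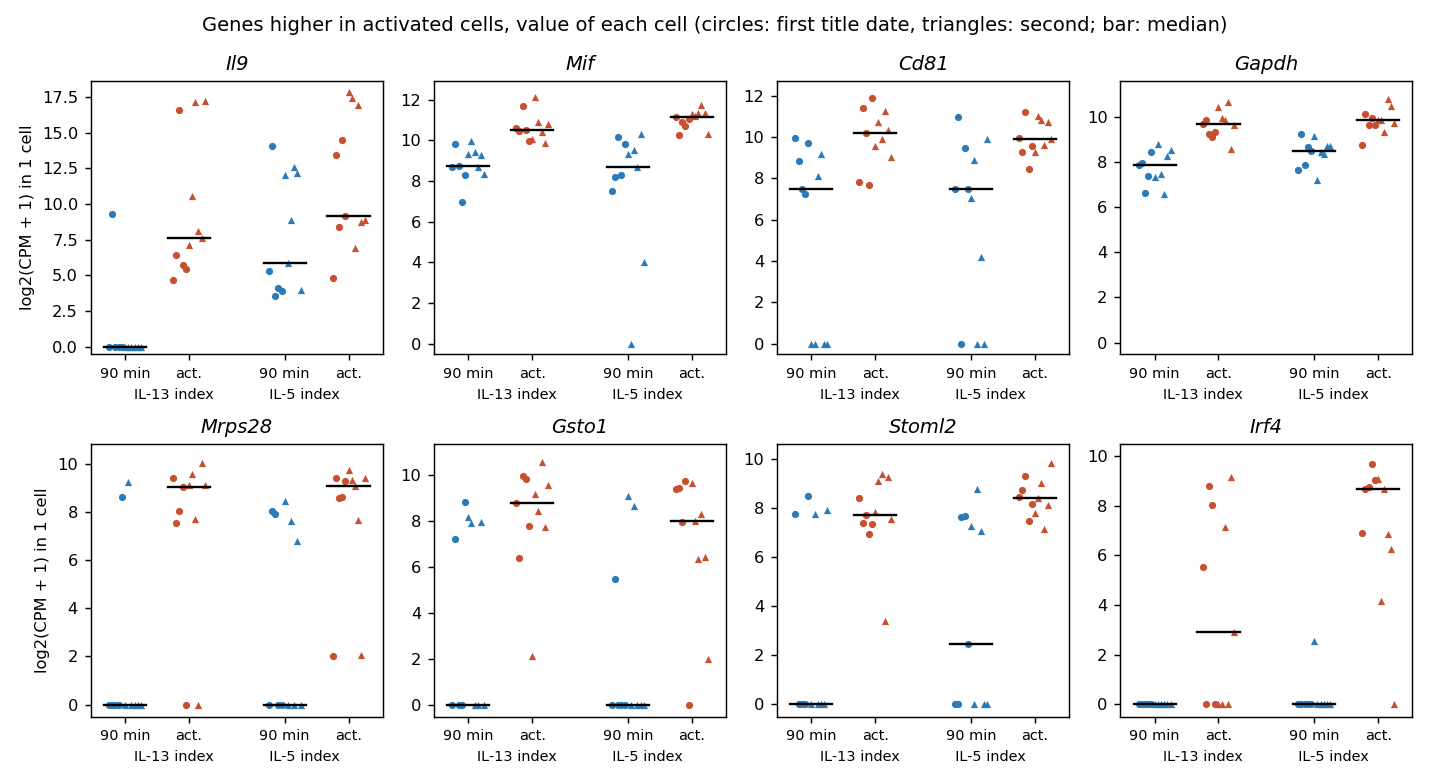
Value of each cell as log2(CPM + 1) for 8 genes that were higher in activated (act.) than in 90 min cells, by index, with 11 cells per group, circles for the first title date, triangles for the second and a bar at the median. For Mif and Gapdh 9 to 10 of 11 activated cells lie above the highest 90 min cell, while Il9 is spread over a wide range and Irf4 is at 0 in 11 and 10 of the 90 min cells.

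Among the genes that respond early, Irf4 was higher in activated cells. Irf4, a transcription factor that ILC2 and T cells need for IL-9 and type 2 cytokines, was named after its values were seen. It had 0 reads at 90 min in IL-13-index cells and 363 reads in 6 activated cells, at least 63.1-fold higher. In IL-5-index cells it had 1 read at 90 min and 1175 reads in 10 activated cells, with a log2 ratio from 6.69 to 14.47 by its counting interval, and it was higher in each of the 4 dates. Cxcl2, a neutrophil chemokine, had 0 reads and 468 reads in IL-13-index cells, at least 81.4-fold higher, with the 468 reads in 1 activated cell. In IL-5-index cells its log2 ratio was 5.38 (4.79 to 6.04), and without activated replicate 5 it was 0.61 and without replicate 4 at 90 min 8.22.

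Nuclear genes of oxidative phosphorylation, glycolysis, proteasome subunits, chaperones and genes of the endoplasmic reticulum lay above the median gene in both indexes, while few of their members passed 2-fold in both. Within an index more members passed. Past 2-fold higher were 15 of 48 and 8 of 53 genes of the endoplasmic reticulum and 12 of 42 and 4 of 42 proteasome subunits. So were 4 of 12 and 7 of 14 glycolysis and pentose phosphate genes, 13 of 75 and 7 of 76 oxidative phosphorylation genes and 6 of 35 and 5 of 34 chaperones. Of all measured genes, 18.8% and 12.5% were. Oxidative phosphorylation in both indexes, proteasome subunits in the IL-5 index and chaperones in the IL-13 index lay below these shares. The median log2 ratio over all measured genes was -0.05 in IL-13-index cells and -0.14 in IL-5-index cells. The 75 and 76 measured nuclear genes of oxidative phosphorylation had medians of 0.47 and 0.35, with 4 of 74 higher past 2-fold in both indexes and 0 lower, and 30 of 74 higher in each of the 4 dates against 0 lower. Of these 4, 1 stayed past 2-fold in both without any 1 cell. Over the 2097 genes, 86 (4.1%) were higher and 171 (8.15%) lower past 2-fold in both, and 330 (15.7%) were higher and 253 (12.1%) lower in each date. Ndufc2, a complex I subunit, had log2 ratios of 1.38 (1.23 to 1.53) and 1.17 (1.01 to 1.34), and Cox7a2, a complex IV subunit, 1.09 (0.99 to 1.18) and 1.35 (1.25 to 1.46). The 8 measured genes encoded by the mitochondrial genome itself had medians of -0.22 and -0.74, below those of all genes.

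Proteasome subunits had medians of 0.64 and 0.32, with 2 of 41 higher past 2-fold in both and 0 lower, and 17 higher in each date against 0 lower. Of the 2, Psmg1, a proteasome assembly chaperone, fell to 0.86 from 1.05 in IL-5-index cells without replicate 8 at 90 min. Psme2, a subunit of the interferon-induced activator, went from 3981 to 2545 CPM among IL-13-index cells and from 2612 to 2414 CPM among IL-5-index cells, log2 ratios of -0.65 (-0.69 to -0.60) and -0.11 (-0.16 to -0.06), of which the latter was between -0.22 and 0.006 without any 1 cell. Glycolysis and the pentose phosphate pathway had medians of 0.50 and 0.98 over 12 and 14 measured genes, with Gapdh and Tpi1 past 2-fold in both and 0 lower. Tpi1, triose phosphate isomerase, had log2 ratios of 1.42 (1.25 to 1.60) and 2.46 (2.27 to 2.66), and without replicate 10 at 90 min the former was 2.12. Chaperones had medians of 0.41 and 0.46, with 2 of 33 higher (Hspe1 and Fkbp4) and 0 lower past 2-fold in both. The Fkbp4 ratio of IL-5-index cells went from 1.25 to 0.994 without activated replicate 3. Hspe1, the mitochondrial co-chaperonin, went from 618 to 2129 CPM and from 643 to 1831 CPM, with log2 ratios of 1.79 (1.69 to 1.88) and 1.51 (1.42 to 1.60). Without replicate 7 at 90 min the former was 2.50. Hspe1 shares exonic bases with Hspd1 on the other strand.

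Genes of translocation into the endoplasmic reticulum, folding and the unfolded protein response had medians of 0.71 and 0.28, with 3 of 48 higher past 2-fold in both and 0 lower, and 16 higher in each date against 2 lower. Sec11c, a subunit of the signal peptidase, had log2 ratios of 1.07 (0.96 to 1.17) and 1.28 (1.20 to 1.37). Manf, a stress-induced protein of the endoplasmic reticulum, had 1.72 (1.62 to 1.82) and 0.84 (0.78 to 0.91). Creld2 had 2.86 (2.46 to 3.28) and 1.06 (0.88 to 1.25), and without replicate 9 at 90 min the former was 5.80. The 3 genes past 2-fold in both were Sec11c, Creld2 and Pdia6, and Manf was not among them. Of the 3, 0 stayed past 2-fold in both without any 1 cell. Coat and trafficking genes had medians of 0.30 and -0.19, above the median gene in IL-13-index cells and below it in IL-5-index cells, where it was 0.03 against 0.10 with TMM factors, with 3 of 24 higher past 2-fold in both (Tmed3, Tmed10 and Lman1) and 0 lower. The Lman1 ratio of IL-13-index cells fell to 0.86 without activated replicate 6, and that of Tmed3 was 6.47 in place of 3.84 without replicate 2 at 90 min. Mitochondrial ribosomal proteins, a list added after seeing the data, had medians of 0.32 and 0.32, with 5 of 59 higher past 2-fold in both and 0 lower. Mrpl42, Mrpl47, Mrps15, Mrps21 and Mrps28 were those 5, and 3 of them stayed past 2-fold without any 1 cell. The Mrpl42 ratio of IL-5-index cells was 0.56 without activated replicate 11, and Mrps21 lay near the limit.

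The 79 measured proteins of the cytosolic ribosome had medians of 0.21 and 0.25, with 0 past 2-fold in both indexes and 35 higher and 4 lower in each date. Rplp2 went from 2825 to 4851 CPM and from 2158 to 3752 CPM, while Rps27 went from 6484 to 2999 CPM and from 4882 to 2992 CPM. Ribosome biogenesis genes had medians of 0.20 and 0.09, with 3 of 58 higher past 2-fold in both (Nop10, Pes1 and Rrp9) and 1 lower (Polr1c). Translation factors had medians of 0.13 and 0.13, with 3 of 46 higher (Eif3i, Eef1e1 and Gspt1) and 0 lower. Among aminoacyl-tRNA synthetases 1 of 20 was higher (Rars) and 2 were lower (Cars and Vars), with medians of 0.30 and 0.17. The lists of nucleotide and one-carbon synthesis (medians 0.62 and 0.12), the cell cycle (0.31 and 0.22) and cholesterol and fatty acid synthesis (0.11 and -0.76) had 0 genes higher and 1 lower past 2-fold in both indexes, namely Sms, Cdk6 and Insig1. Without any 1 cell, 1 of the 3 genes higher in ribosome biogenesis and 1 of the 3 translation factors stayed past 2-fold in both, and so did Polr1c and Cdk6, while Rars, Cars, Vars, Sms and Insig1 did not. Single cells took the Gspt1 ratio to 0.79, that of Cars to -0.50 and that of Insig1 to -0.65 in IL-13-index cells, and that of Vars to -0.64 in IL-5-index cells. The cells left out were activated replicate 5 and, at 90 min, replicates 9, 5 and 1. Several of these list medians turned below 0 without 1 activated cell, so no direction is read from them: in IL-13-index cells ribosome biogenesis (-0.01) and translation factors (-0.09) without replicate 7, synthetases (-0.03) without replicate 6, cholesterol and fatty acid synthesis (-0.38) without replicate 7 and the cell cycle (-0.08) without replicate 5, and in IL-5-index cells synthetases (-0.13) without replicate 11.

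**Figure D3:**
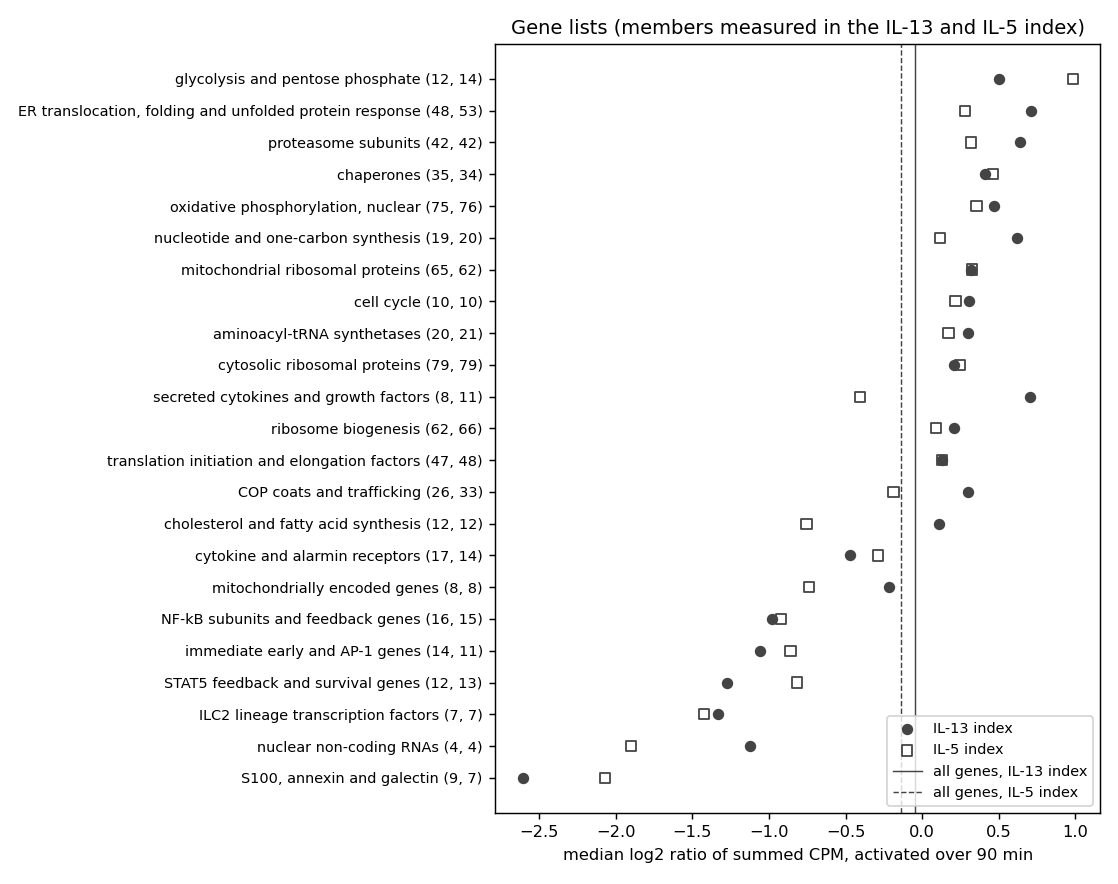
Median log2 ratio of summed CPM, activated over 90 min cells, for each gene list in the IL-13 index (filled circles) and the IL-5 index (open squares), with the number of measured members in brackets and vertical lines at the medians of all genes. Glycolysis, endoplasmic reticulum, proteasome and oxidative phosphorylation lie to the right of both lines, and S100, annexin and galectin genes lie farthest to the left (-2.61 and -2.07).

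Sqstm1 encodes p62, a receptor that carries cargo to autophagosomes and a scaffold for NF-kB signalling, and it ranked first among the genes that were lower in activated cells. In IL-13-index cells it ran from 1002 to 11948 CPM (median 5127) at 90 min and from 0 to 1076 CPM (median 188) when activated. In IL-5-index cells it ran from 45.1 to 9647 CPM (median 1834) and from 3.04 to 581 CPM (median 231). In IL-13-index cells the groups overlapped by 1 cell, since 10 of 11 activated cells lay below the lowest 90 min cell, and in IL-5-index cells 7 of 11 cells at 90 min lay above the highest activated cell. Summed Sqstm1 went from 4872 to 357 CPM and from 3360 to 245 CPM, log2 ratios of -3.77 (-3.86 to -3.68) and -3.78 (-3.88 to -3.67). By date the ratios lay between -4.25 and -3.57, and leaving out any 1 cell kept them between -4.06 and -3.55. Gm43305, a transcript on chromosome 14 annotated as processed and without a known role, went from 1349 to 86.7 CPM and from 949 to 74.0 CPM, log2 ratios of -3.96 (-4.14 to -3.78) and -3.68 (-3.87 to -3.50).

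S100 proteins, small calcium-binding proteins, and galectin-1 were lower together. S100a6 ran from 272 to 5151 CPM (median 1545) at 90 min and from 0 to 463 CPM (median 66.9) when activated in IL-13-index cells, and from 0 to 8060 CPM (median 1676) and from 0 to 439 CPM (median 0) in IL-5-index cells. In each index 8 of 11 cells at 90 min lay above the highest activated cell. The log2 ratios of S100a6 were -3.39 (-3.53 to -3.25) and -4.43 (-4.60 to -4.28), and the latter was -5.02 without activated replicate 4. S100a11, whose promoter is printed above, went from 768 to 102 CPM and from 589.9 to 159 CPM, log2 ratios of -2.91 (-3.09 to -2.73) and -1.89 (-2.04 to -1.75). Lgals1, galectin-1, had reads in 8 and 9 of 11 cells at 90 min and in 3 and 3 when activated, with log2 ratios of -3.29 (-3.49 to -3.09) and -2.54 (-2.72 to -2.36). Without activated replicate 3 and activated replicate 7 in turn the Lgals1 ratios were -4.07 and -3.33. In the list of S100, annexin and galectin genes, added after seeing the data, 5 of 7 were lower past 2-fold in both indexes (8.15% of all measured genes were) and 0 higher, namely S100a4, S100a6, S100a10, S100a11 and Lgals1, and all 5 stayed past 2-fold without any 1 cell. Without activated replicate 7 the S100a4 ratio of IL-13-index cells went from -1.85 to -2.75, and in IL-5-index cells that of S100a4 went from -3.91 to -5.12 without activated replicate 3 and that of S100a10 from -1.64 to -2.32 without activated replicate 5. The annexins on the list were too low in at least 1 index to be counted, apart from Anxa7.

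Adam8, a membrane metalloprotease, had reads in 11 and 9 cells at 90 min and in 3 and 0 when activated. In IL-5-index cells activated cells had 0 reads against 488, at least 332-fold lower, and in IL-13-index cells the log2 ratio was -3.11 (-3.40 to -2.83), and -6.17 without activated replicate 9. Orai1, the pore of the calcium channel that opens on store depletion, went from 256 to 13.2 CPM and from 439.5 to 65.9 CPM, log2 ratios of -4.28 (-4.78 to -3.83) and -2.74 (-2.95 to -2.53), and -5.56 for the former without activated replicate 1. Serinc3, a membrane protein, had log2 ratios of -3.05 (-3.23 to -2.87) and -2.98 (-3.14 to -2.82), and -4.09 for the former without activated replicate 10. Gm49339 had -4.77 (-5.02 to -4.52) and -3.29 (-3.43 to -3.15). Its exons share 1846 bases with Lilrb4a, an inhibitory receptor gene that was listed with 0 reads, so these genes cannot be told apart in these counts. Without activated replicate 3 or 5 the Gm49339 ratio of IL-13-index cells was -5.39 and -5.39. Skap1, an adaptor of lymphocyte adhesion, and Samsn1, an inhibitory adaptor, had log2 ratios of -2.29 and -1.84 in IL-13-index cells and -2.97 and -1.85 in IL-5-index cells. Without activated replicate 10 the Skap1 ratio was -3.42 and without activated replicate 4 that of Samsn1 was -2.47 in IL-13-index cells, and without activated replicate 5 the Skap1 ratio was -3.80 in IL-5-index cells. ENSMUSG00000089672, an identifier that the annotation used here does not name, had -5.72 and -2.35.

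**Figure D4:**
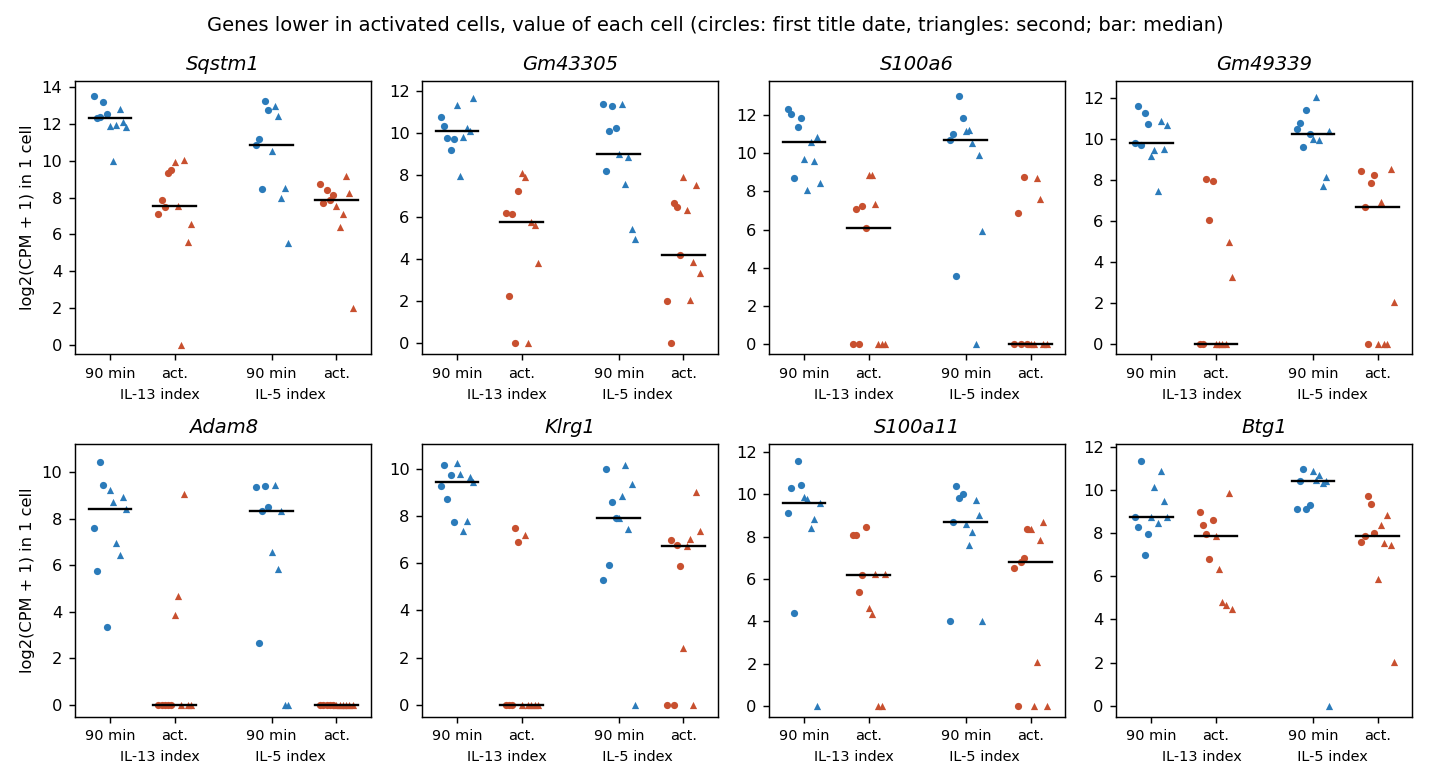
Value of each cell as log2(CPM + 1) for 8 genes that were lower in activated (act.) than in 90 min cells, by index, with 11 cells per group, circles for the first title date, triangles for the second and a bar at the median. Of the 11 cells at 90 min, 10 and 7 lie above the highest activated cell for Sqstm1 and 3 and 9 for Adam8.

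None of the receptors and lineage factors of ILC2 listed was higher in activated cells past 2-fold in both indexes. Klrg1, an inhibitory receptor of mature ILC2, ran from 161 to 1219 CPM (median 694) at 90 min and from 0 to 180 CPM (median 0) when activated in IL-13-index cells, and from 0 to 1143 CPM (median 241) and from 0 to 508 CPM (median 105) in IL-5-index cells. Its log2 ratios were -3.91 (-4.18 to -3.66) and -2.11 (-2.29 to -1.94), and -4.51 without activated replicate 7 and -2.77 without activated replicate 10 in the same order. Kit, the stem cell factor receptor by which the cells were sorted, had -3.07 (-3.25 to -2.89) and -1.34 (-1.51 to -1.17), and the latter was -0.79 without replicate 5 at 90 min. Ly6a, which encodes Sca-1, the other sorting marker, was present in 11 of 11 cells of each group and had -0.63 (-0.68 to -0.58) and -0.60 (-0.64 to -0.56). The list of cytokine and alarmin receptors also held other surface genes, among them Klrg1 and Ly6a. Of its 13 members measured in both indexes, 2 were lower past 2-fold in both (Klrg1 and Kit) and 0 higher. Of all measured genes, 8.15% were lower and 4.1% higher. The list had medians of -0.47 and -0.29. Il1rl1, which encodes ST2, was at 898 and 895 CPM in IL-13-index cells and at 1824 and 525 CPM in IL-5-index cells.

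On the list of lineage transcription factors, 1 of 5 measured genes (Nfe2l2) was lower past 2-fold in both indexes and 0 higher. Of all measured genes, 8.15% were lower in both. The list had medians of -1.33 and -1.42. Nfe2l2 encodes a stress-response factor and not a lineage factor, and Gata3, Id2 and Rora did not pass 2-fold in both. Nfe2l2 had -1.33 in IL-13-index cells, which was -0.54 without replicate 6 at 90 min. The list medians moved as much with 1 cell: from -1.98 (without activated replicate 10) to -0.54 (without replicate 6 at 90 min) in IL-13-index cells and from -2.12 (without replicate 10 at 90 min) to -1.01 (without activated replicate 6) in IL-5-index cells. Of the 5, 4 were lower in each date, as were 12.1% of all measured genes. Gata3, the master factor of type 2 lymphocytes, had log2 ratios of -2.12 (-2.22 to -2.01) and -0.90 and was lower in each date. Gata3 shares 77 exonic bases with 9230102O04Rik on the same strand, so the assignment of reads there is uncertain. Id2, which every innate lymphoid lineage needs, had -2.08 (-2.20 to -1.96) and -0.63 (-0.71 to -0.55). Rora had -0.39 (-0.50 to -0.29) and -1.42 (-1.51 to -1.34). The 16 ILC2 markers together held 14594 CPM at 90 min and 7418 CPM when activated in IL-13-index cells, and 14750 and 9114 CPM in IL-5-index cells, with cells from 2797 to 30082 CPM over the 4 groups, and each of the 16 had a read in at least 1 cell. Most markers of other cells had no reads, but some cells held single markers at levels like those of named genes. The 6 markers of NK cells had 0 reads, 5 of 6 macrophage markers had 0, 7 of 8 mast cell markers had 0, and 5 of 6 B cell, 5 of 6 stromal and 5 of 10 T cell markers had 0. The B cell list summed to 130.3 and 9.08 CPM and then to 79.3 and 21.4 CPM, all of it Ighm. The mast cell list summed to 326 and 48.5 CPM and then to 240.5 and 233 CPM, all of it Fcer1a, which reached 2250 CPM in a 90 min cell of the IL-13 index and 2151 and 2093 CPM in a 90 min and an activated cell of the IL-5 index. The stromal list, all of it Pecam1, went from 33.0 to 2.82 CPM and from 32.8 to 1.61 CPM, lower in activated cells of both indexes. The macrophage list was at 0 except for Adgre1 in 1 activated IL-5-index cell, 38.3 CPM in all. T cell markers summed to 1499 and 515 CPM in IL-13-index cells and to 477 and 327 CPM in IL-5-index cells. Of this, Trbc2 made up 1362 and 443 CPM and then 262 and 296 CPM. Cd3g, a subunit of the T cell receptor complex, also moved with state. It went from 392 reads in 3 cells (214 CPM) at 90 min to 0 in IL-5-index cells, at least 267-fold lower, and from 16 reads in 1 cell to 0 in IL-13-index cells, at least 10.2-fold lower. Cd3d had 0 reads and Cd3e 1 read. Their part in the differences was not tested.

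Several genes on the lists of NF-kB subunits and feedback and of STAT5 feedback and survival were lower in activated cells. Of 14 NF-kB subunits and feedback genes measured in both indexes, 4 were lower past 2-fold in both (Nfkb1, Bcl3, Tnfaip3 and Map3k8) and 0 higher, with 8 lower and 0 higher in each date and medians of -0.98 and -0.92. Over all measured genes, 8.15% were lower past 2-fold in both and 12.1% lower in each date, which are also the shares to set beside the counts that follow. Of the 4, Tnfaip3 and Map3k8 stayed past 2-fold without any 1 cell. Bcl3 in IL-5-index cells went from -1.25 to -0.97 without replicate 6 at 90 min. Nfkb1, which encodes p105 and p50, went from 1009 to 499.8 CPM and from 1283 to 451 CPM, log2 ratios of -1.01 (-1.11 to -0.91) and -1.51 (-1.60 to -1.42), and the former was -0.82 without activated replicate 11. Map3k8, a kinase downstream of p105, had -4.89 (-5.28 to -4.53) and -1.81 (-2.02 to -1.60), and without replicate 11 at 90 min and without activated replicate 5 the former was -4.16 and -5.74. In IL-5-index cells the Map3k8 medians were alike, 70.3 CPM at 90 min and 70.6 CPM when activated, and 6 of 11 activated cells lay above the median 90 min cell, while 3 of the 90 min cells lay above the highest activated cell. Nfkbia, the inhibitor IkB-alpha, had -0.31 and -0.60. Of 10 measured genes on the STAT5 feedback and survival list, 4 were lower past 2-fold in both (Cish, Socs1, Stat6 and Jak1) and 0 higher. In each date 6 were lower and 0 higher, and the medians were -1.28 and -0.82. Of the genes lower in both, Jak1 and Stat6 are signalling genes and not feedback genes. Cish, a STAT5 target that damps cytokine receptors, had -1.15 (-1.28 to -1.02) and -1.55 (-1.68 to -1.43), and Jak1 had -1.31 (-1.45 to -1.16) and -1.47 (-1.59 to -1.36). Without replicate 11 at 90 min, the ratios of IL-13-index cells were -0.88 for Cish, -0.89 for Jak1 and -0.64 for Stat6, so only Socs1 of the 4 stayed past 2-fold without any 1 cell. Its ratios, -1.62 and -2.19, were -2.66 without activated replicate 9 and -2.96 without activated replicate 7.

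Of 10 immediate early and AP-1 genes measured in both indexes, 4 were lower past 2-fold in both (Btg1, Zfp36l1, Gadd45g and Rrad), 1 was higher (Irf4), and the medians were -1.06 and -0.86. Of the 4, only Btg1 stayed past 2-fold in both without any 1 cell. Zfp36l1 had -1.02 and -1.05, which ran from -2.67 (without activated replicate 10) to -0.54 (without replicate 9 at 90 min) and from -2.19 (without activated replicate 11) to -0.59 (without replicate 4 at 90 min). Gadd45g in IL-5-index cells had -1.43, which was -0.69 without replicate 6 at 90 min and -3.10 without activated replicate 7. Rrad in IL-13-index cells had -1.59, which was -0.40 without replicate 11 at 90 min and -6.59 without activated replicate 2. Btg1, an antiproliferative gene of resting lymphocytes, ran from 126 to 2602 CPM (median 434) at 90 min and from 21.5 to 925 CPM (median 233) when activated in IL-13-index cells, and from 0 to 1999 CPM (median 1357) and from 3.04 to 856 CPM (median 232) in IL-5-index cells. Its log2 ratios were -1.84 (-1.97 to -1.70) and -2.10 (-2.20 to -1.99). Gadd45b, a stress gene induced by NF-kB, had -1.15 (-1.21 to -1.09) and -0.86 (-0.92 to -0.80), and Batf, an AP-1 factor, -1.10 (-1.17 to -1.03) and -0.52 (-0.59 to -0.45). Of 4 nuclear non-coding RNAs 2 were lower past 2-fold in both (Neat1 and Xist), with medians of -1.12 and -1.90. The Neat1 ratio of IL-13-index cells, -2.10, rested on single cells, since it was -0.46 without replicate 4 at 90 min and -6.49 without activated replicate 9, and on the second date it was 2.25. Malat1, a nuclear RNA, had -0.99 (-1.02 to -0.96) and -2.01 (-2.05 to -1.98). In IL-5-index cells the highest activated cell for Malat1 lay below the lowest 90 min cell.

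The secreted cytokines followed no common direction. Il13 was at 0 to 1302 CPM (median 571) at 90 min and 33.4 to 4064 CPM (median 949.7) when activated in IL-13-index cells, and at 4.55 to 6188 CPM (median 961) and 6.09 to 4186 CPM (median 528) in IL-5-index cells. Its log2 ratio was 1.29 (1.18 to 1.40) in IL-13-index cells and -0.79 (-0.86 to -0.72) in IL-5-index cells, with both dates of each index on the same side. Il5 was lower in each date, with log2 ratios of -0.67 (-0.75 to -0.58) and -0.45 (-0.49 to -0.41), but leaving out single cells took the latter from -1.09 (without activated replicate 7) to 0.047 (without replicate 6 at 90 min). Csf2, which encodes GM-CSF, went from 2292 to 13159 CPM in IL-13-index cells and from 6224 to 12102 CPM in IL-5-index cells, log2 ratios of 2.52 (2.47 to 2.57) and 0.96 (0.93 to 0.99). By date the latter was 2.20 and -0.18. Il6 had 2.42 (2.31 to 2.53) and -0.06 (-0.11 to -0.02), and 1 cell decided each: 0.87 without activated replicate 6 of IL-13-index cells, 3.37 there without replicate 10 at 90 min, and 2.58 without replicate 6 at 90 min of IL-5-index cells. Il4 had -0.89 (-1.12 to -0.65) and -0.40 (-0.59 to -0.22), and without activated replicate 7 the former was -1.51. Calca, which encodes the peptide CGRP, had 0.12 and 2.19. Without replicate 3 at 90 min the former was 0.74, and without replicate 4 at 90 min the latter was 2.98.

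Il2 and Il3 were near the detection floor. Il2 had 22 reads at 90 min in 1 cell and 4 reads when activated in IL-13-index cells, and 0 and 2 reads in IL-5-index cells. Il3 had reads in 2 activated cells of IL-5-index cells alone, 162 in all. Mir155hg, the host transcript of miR-155, had log2 ratios of 0.28 (-0.01 to 0.58) and 1.57 (1.24 to 1.90). By date, Mir155hg lay at -0.66 and 1.35 in IL-13-index cells and at -0.22 and 4.98 in IL-5-index cells, so no direction is read from it. Without activated replicate 3 the former ratio was -0.68, and without replicate 3 or 4 at 90 min or activated replicate 10 the latter was 2.43, 2.22 or 0.72. Of 8 cytokine genes measured in both indexes 1 was higher past 2-fold in both (Il9) and 1 lower (Tnfsf14). The Tnfsf14 ratios, -1.61 and -1.36, were -0.62 without replicate 10 and -0.25 without replicate 4 at 90 min. The whole list summed to 8792 CPM at 90 min and 66475 CPM when activated in IL-13-index cells, and to 20812 and 87407 CPM in IL-5-index cells. Il9 was the main part of both activated sums but not of the 90 min sums. Ccl1, a chemokine, went from 1956 to 7092 CPM and from 1953 to 2201 CPM, with log2 ratios of 1.86 (1.81 to 1.91) and 0.17 (0.12 to 0.23). Without activated replicate 2 the former was 1.23, and without activated replicate 11 the latter was -1.30.

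The levels in the other states of each index place these genes in time, and they are given as descriptions, since the 90 min and activated groups are the same cells as above. Sqstm1 was at 209 and 369 CPM before stimulation, with the IL-13 index first throughout, at 10922 and 4432 CPM at 30 min, at 10169 and 1950.5 CPM at 60 min and at 764 and 601 CPM in silent cells. Orai1 was at 0 and 13.2 CPM before stimulation, at 246 and 202 CPM at 30 min, at 474 and 124 CPM at 60 min, and at 31.0 and 140.0 CPM in silent cells. Adam8 was at 0 and 0 CPM before stimulation and at 37.8 and 38.5 CPM in silent cells, against 383 and 216 CPM at 30 min. For these genes activated cells lay below each of the transition states, and so did silent cells, except for Orai1 with IL-5 as the index, where silent cells lay above the 60 min level.

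S100a6 was highest before stimulation, at 3423 and 3537 CPM, and was at 631 and 287 CPM in silent cells. Klrg1 was at 807 and 714 CPM before stimulation and at 171 and 59.7 CPM in silent cells. Lgals1 was at 1996 and 1179 CPM before stimulation and at 12.5 and 450.5 CPM in silent cells. For these genes silent cells, which were taken at the same time after the stimulus as activated cells, also lay below the pre-stimulation level.

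Among the genes that were higher in activated cells, Mif was at 638 and 600 CPM before stimulation, 288 and 597 CPM at 30 min, 402 and 771 CPM at 60 min and 1046 and 1436 CPM in silent cells. Comtd1 was at 1.04 and 0 CPM before stimulation, and Cd81 at 72.6 and 233 CPM. Hsd17b10 was at 311 and 331 CPM before stimulation against 209 and 239 CPM when activated, and Mrps15 at 394 and 403 CPM against 284 and 215 CPM. For Hsd17b10 and Mrps15 the activated level lay below the level before stimulation.

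**Figure D5:**
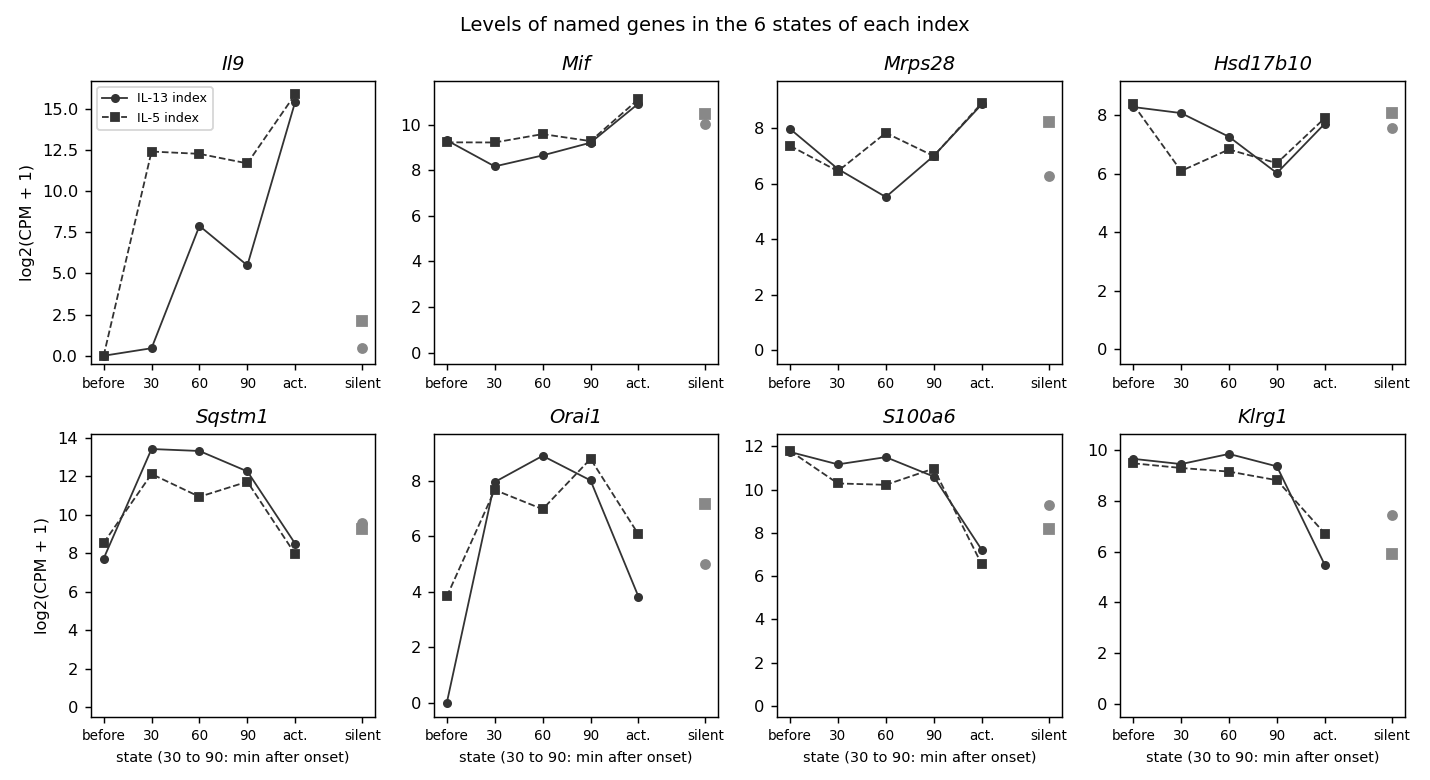
Level of 8 named genes as log2(CPM + 1), reads summed over the cells of a group, before stimulation (5 cells), at 30, 60 and 90 min after onset, in activated (act.) and in silent cells (grey, set apart), for the IL-13 index (circles, solid) and the IL-5 index (squares, dashed). Sqstm1 and Orai1 are higher in each transition state than before stimulation and than in activated cells, S100a6 and Klrg1 are high up to 90 min, and Hsd17b10 lies below its pre-stimulation level at 90 min.

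Activated cells showed more genes per cell at equal depth. With every cell thinned to 50000 gene reads, the number of genes with a read had a median of 2048 at 90 min (1686 to 2481) and 2639 when activated (1349 to 3021) with IL-13 as the index. For IL-5 the medians were 2372 (1236 to 2645) and 2849 (2191 to 3244). Activated cells thus had 591 and 477 more, and the ranges overlapped. Counting only genes with at least 5 reads reduced the differences to 133 and 37.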

How the data were processed

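Single mouse ILC2 were profiled with SMART-Seq v4 3′ libraries. The authors aligned reads with TopHat2 (builds mm10 and, for human data, GRCh38 per the labels) and counted them per gene with HTSeq, and the raw counts were used as deposited. The strand setting and annotation release are not given in the sources used here. Libraries that failed a Bioanalyzer quality check were left out by the authors and are not analysed here. Spike-in RNA was added, but its counts were not used here.

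For each group the counts of its 11 cells were added up and divided by their total gene reads. Log2 ratios took 3 reads as the floor for a group with fewer, and their intervals are Clopper-Pearson intervals (SciPy 1.17.1, Python 3.11.15). No test was run, since a group is 1 sample. TMM (edgeR 4.0.16) and DESeq2 1.42.0 supplied factors only. The members and lists were chosen with earlier results of these data known. Candidate genes reached 50 CPM in the higher state of each index and were detected in 70% or more of that state's cells. In each index they kept 1 sign in both dates, in the cell mean and without any 1 cell. From these candidates came the 15 per direction with the largest smaller ratio, 5 with opposite signs and, in each list, up to 3 with the largest ratio. The 9 fixed genes and up to 4 highest measured genes of each list were named without these conditions. Other members counted past 2-fold, and Irf4, were named after their values were seen. Promoters came from RefSeq tables (GRCm38.p6) and 1678 of 2095 symbols matched. Gene names and positions came from the reference annotation. Alternatives were other scalings, totals without Il9, CPM minima of 10, 200 and 0, a 4-fold limit, the mean of cells, each title date, each cell left out, and, added after seeing the data, cells thinned to 50000 reads and without those above 4% mitochondrial reads.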

Additional observations from a re-analysis of the deposited data

Results flagged for a closer look

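For 10 of the 155 genes named by rule, both title dates of 1 index lay on one side and both dates of the other index on the opposite side. Prmt5, Rnf4, Mrpl54, Pet100 and Nubp1 were named by the rule for opposite signs, which asked for this pattern. Their place among the 10 was therefore set by the rule. These differences were not tested, since a group is 1 sample. They are given as the log2 ratio of the IL-13 index minus that of the IL-5 index. Il13, the index cytokine itself, differed by 2.08. Prmt5, an arginine methyltransferase, differed by 4.06, going from 31.8 to 141 CPM in one index and from 151 to 40.2 CPM in the other. Rnf4, a ubiquitin ligase, differed by 3.49, Ahr, a ligand-activated transcription factor of innate lymphoid cells, by 3.64, and Eprs, a tRNA synthetase, by 2.80. Single cells moved these ratios. Without replicate 11 at 90 min of the IL-5 index, a cell with 14.1% mitochondrial reads, the IL-5 ratios of Prmt5, Rnf4 and Eprs went from -1.91, -1.82 and -1.69 to -1.26, -0.997 and -0.95. In the IL-13 index, Prmt5 went from 2.14 to 3.70 without replicate 7 at 90 min, Rnf4 from 1.66 to 2.79 without replicate 5 and Ahr from 0.74 to 2.55 without replicate 6. Ahr in the IL-5 index went from -2.90 to -3.51 without activated replicate 11. In the reverse direction, Mrpl54, a mitochondrial ribosomal protein, differed by -3.05, Pet100 by -2.99, Nubp1 by -2.94, Mrpl30 by -1.73 and Aldoa, a glycolytic enzyme, by -0.71. In the IL-5 index, Mrpl54 went from 1.57 to 2.43 without replicate 8 at 90 min, and Pet100 from 1.54 to 2.20 without replicate 2 and to 2.16 without replicate 5. Of the 2097 genes measured in both indexes, 167 (7.96%) had dates opposed in this way, and 68 (3.24%) lay past 2-fold in opposite directions.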

How the results depend on the processing

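No paired analysis was possible because replicate numbers were given in accession order and pair no cells, and no result comes from a test. The CPM minimum moved the counts past 2-fold most. With minima of 10, 200 and 0 CPM, the IL-13 index gave 3358, 216 and 5326 genes (1583, 105 and 2719 higher, 1775, 111 and 2607 lower). The IL-5 index gave 3292, 165 and 5287 (1242, 73 and 2377 higher, 2050, 92 and 2910 lower), and both together 896, 59 and 1638 (338, 28 and 740 higher, 558, 31 and 898 lower). At 4-fold the counts were 418 (158 higher, 260 lower), 366 (70 and 296) and 52 (12 and 40). On the first title date alone, 595 genes were higher in the IL-5 index and 162 in both. The correlation between indexes was 0.354 and 0.228 on the dates, and 0.168, 0.631 and 0.124 with minima of 10, 200 and 0 CPM. The Il13 ratio of the IL-13 index was 0.69 and 1.58 by date, 1.18 in thinned cells and 0.90 to 1.55 without any 1 cell. The Il5 ratio of the IL-5 index was -0.51 as a mean of cells, -0.24 with TMM, -0.23 with DESeq2 factors, -0.36 without Il9 in the totals, -0.25 and -0.59 by date, -0.50 without cells above 4% mitochondrial reads, -0.51 in thinned cells, and -1.09 to 0.047 without any 1 cell. Differences in genes detected were 857 and 633 unthinned, 133 and 37 with at least 5 reads, and 820 and 593 on the first and 464.5 and 330 on the second date. Among the ratios of named genes past 2-fold, signs reversed for Mir155hg (IL-5 index, first date, -0.22), Sar1a (IL-13 index, first date, 0.31), Msmo1 (IL-13 index, second date, 0.31) and Neat1 (IL-13 index, second date, 2.25). The cause was not tested. Leaving out any 1 cell kept the genes past 2-fold in both indexes between 80 and 97 higher and between 160 and 186 lower, and the correlation between 0.379 and 0.429. Among the ratios of named genes, 0 called values reversed with TMM factors, with DESeq2 factors or as a mean of cells. The same held in thinned cells, without Il9 in the totals and without cells above 4% mitochondrial reads. Most ratios moved beyond their counting interval on a single date: 258 on the first (47 stayed inside it) and 238 on the second (66 stayed). In thinned cells 208 moved and 100 stayed. With TMM factors 184 moved and 124 stayed, with DESeq2 factors 177 and 131, and as a mean of cells 166 and 142. Without Il9 in the totals 71 moved and 237 stayed, and without those mitochondrial cells 34 and 274. Depth limits the genes near 0 at 90 min, where cells had a median of 156702 and 184079 gene reads. Time since stimulation, pool and state could not be separated.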
